A study of Mus musculus with 16 samples.

Results

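The neurotrophin family and its receptors were described across 2 reporter lines and 2 brain regions through 5 genes: the ligands Bdnf and Ntf3, the receptor kinases Ntrk2 (TrkB) and Ntrk3 (TrkC), and the shared receptor Ngfr (p75NTR). A member was any transcript cluster, the array's gene-level probe set, that the platform annotation paired with 1 of these symbols and no other. Of the 5 genes, 4 had 1 such cluster each among the 30142 named genes measured. Ntf3 had no cluster with its symbol alone and was not analysed here. Clusters with several symbols were left out, so the array may still carry a shared Ntf3 cluster. The clusters were TC0200001624.mm.1 for Bdnf, TC1300000718.mm.1 for Ntrk2, TC0700003539.mm.1 for Ntrk3 and TC1100003593.mm.1 for Ngfr. The filter on low values kept 20094 genes and 3 of the members, Ntrk2, Ntrk3 and Ngfr. Bdnf lay below it and was tested only in a fit without the filter.

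Neurotrophins are secreted growth factors that are cut from longer precursors and released from neurons. The mature forms bind Trk receptor tyrosine kinases, BDNF acting through TrkB and neurotrophin-3 mainly through TrkC, which signal through the Ras-MAP kinase, PI3 kinase-Akt and phospholipase C gamma routes, while p75NTR binds all neurotrophins and, with sortilin-family partners, their precursors. In forebrain, BDNF made largely by excitatory neurons promotes the maturation of parvalbumin interneurons, which carry TrkB. Ntrk2 also gives a truncated receptor without the kinase, abundant in astrocytes, and the gene-level values do not separate the forms.

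Cells were sorted by tdTomato fluorescence, the label for parvalbumin interneurons, fast-spiking inhibitory cells, from male C57BL/6J mice aged 30 days. They were profiled on Affymetrix mouse transcriptome arrays. The groups were dorsal striatum and motor plus somatosensory cortex of PV-tdTomato/+ mice, which carry the reporter without Cre, and the same regions of PVCre/+; tdTomato/+ mice, in which Cre expressed under parvalbumin control switches the reporter on. Each group had 4 arrays, and each array held RNA of 2000 cells pooled from 2 to 4 mice. Because Cre switches the reporter permanently, tdTomato in the PVCre line marks any cell that has ever made enough Cre. Whether arrays of a group came from separate mice is not stated, so p-values measure the spread between these arrays. Line, reporter design and any processing batch cannot be told apart.

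All values below are levels on the log2 scale of the deposited table. Errors of group means are SD over 4 arrays, and errors of differences are standard errors (SE) of the limma fit. The array medians lay between 5.97 and 6.13 and the 23 background probe sets between 2.95 and 6.10 in mean. Several arrays went against their labels. Pvalb, which encodes parvalbumin itself, was under 9 on 6 of 16 arrays. These were replicates 3 and 4 of PV-tdTomato striatum, the same numbers of PV-tdTomato cortex, and PVCre cortex replicates 2 and 4. Gad1, the GABA-synthesizing enzyme of inhibitory neurons, was lowest on those same PVCre cortex arrays, at 8.88 and 7.40, against 11.63 or more elsewhere. Xist, a transcript of the inactive X chromosome, was over 12 on 8 of 16 arrays although the mice were labelled male, 2 of 8 in the PV-tdTomato line and 6 of 8 in the PVCre line. Results are therefore also given without these arrays. The difference between positive and negative exon controls, a measure of array quality, was 4.16 to 4.85 in the PV-tdTomato line and 3.08 to 3.93 in the PVCre line, with no overlap. In sorted pools, fewer cells of a type and less RNA per cell cannot be told apart.

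Of the ligands, Bdnf was at background on every array. In PV-tdTomato striatum its level was 4.73, 4.80, 4.86 and 4.64, and in PV-tdTomato cortex 4.78, 4.86, 4.98 and 4.88. PVCre striatum gave 5.49, 5.18, 5.13 and 5.14, and PVCre cortex 5.47, 5.48, 5.13 and 5.57. The lines did not overlap, the PVCre arrays being higher in both regions, while the regions overlapped within each line. All values lay under the highest background probe set mean of 6.10 and under the array's own median of negative controls, which ran from 6.18 to 6.70. Levels at or below background give no fold change for Bdnf. In the limma fit without the filter on low values, the line difference was 0.48 ± 0.11 (SE) in striatum with an adjusted p of 0.0022, and 0.54 ± 0.11 in cortex with an adjusted p of 0.00099. Among all the genes under the filter, 30.8% in striatum and 33.3% in cortex were called higher in PVCre in the same way.

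Ntf5, which encodes neurotrophin-4, the other TrkB ligand, had the same pattern at background, with PV-tdTomato means of 4.59 ± 0.11 (striatum) and 4.63 ± 0.09 (cortex) and PVCre means of 5.47 ± 0.11 (striatum) and 5.49 ± 0.28 (cortex). It was above the highest background probe set mean on 0 of 16 arrays.

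Ntrk2, the BDNF receptor, was above background on 16 of 16 arrays. In PV-tdTomato striatum its level was 13.21, 13.22, 12.67 and 12.91, and in PV-tdTomato cortex 13.39, 13.64, 12.40 and 12.59. PVCre striatum gave 10.46, 11.38, 11.99 and 11.91, and PVCre cortex 10.24, 9.07, 11.49 and 9.22. Every PVCre array was lower than every PV-tdTomato array of its region, and the lowest values of all were PVCre cortex replicates 2 and 4, the arrays with low Gad1. The group means ran from 13.01 ± 0.60 in PV-tdTomato cortex and 13.00 ± 0.26 in PV-tdTomato striatum, which overlapped, through 11.44 ± 0.70 in PVCre striatum to 10.00 ± 1.12 in PVCre cortex, which overlapped with PVCre striatum.

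Ntrk3, the neurotrophin-3 receptor, was also above background on 16 of 16 arrays. In PV-tdTomato striatum its level was 10.43, 10.55, 10.64 and 10.25, and in PV-tdTomato cortex 12.20, 12.49, 10.53 and 11.13. PVCre striatum gave 8.64, 9.01, 9.04 and 9.02, and PVCre cortex 8.97, 7.26, 10.93 and 7.11. The striatal arrays of each line were tight, whereas both cortical groups spread widely. In cortex the high PV-tdTomato arrays were replicates 1 and 2, which also had high Pvalb, and the PVCre arrays with low Gad1 were again the lowest. The group means fell in the order PV-tdTomato cortex, 11.59 ± 0.92, PV-tdTomato striatum, 10.47 ± 0.17, PVCre striatum, 8.93 ± 0.19, and PVCre cortex, 8.57 ± 1.79. Only PV-tdTomato striatum and PVCre striatum, among neighbours in this order, did not overlap.

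Ngfr was near background throughout. The PV-tdTomato arrays read 6.01, 6.00, 6.06 and 5.77 from striatum, and 5.90, 5.99, 5.95 and 6.16 from cortex. The PVCre arrays read 6.02, 6.08, 6.08 and 6.02 from striatum, and 6.36, 5.93, 6.00 and 6.39 from cortex. All 4 groups overlapped. Only 3 of 16 arrays were above the highest background probe set mean, and 0 of 16 were above their own negative control median.

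**Figure D1:**
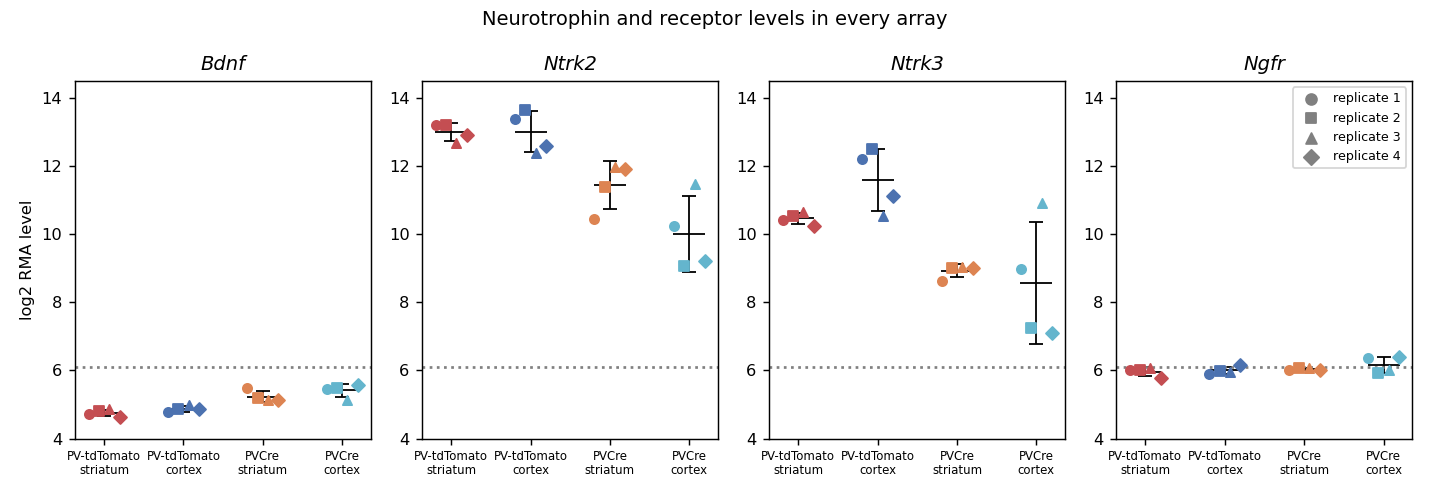
Level of Bdnf, Ntrk2, Ntrk3 and Ngfr (log2 scale) on each of the 16 arrays, by group, with mean and SD, and a dotted line at the highest background probe set mean, 6.10. Ntrk2 and Ntrk3 lie above the line on every array and are lower in the PVCre groups, while Bdnf lies below it on every array.

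The first comparison asked how the sorted pools of dorsal striatum differ from those of cortex within the PV-tdTomato line. The pools also held transcripts of other cells. Oligodendrocyte markers averaged 12.50 to 15.55 over the 16 arrays. Ependymal markers averaged 10.15 in striatum and 5.97 in cortex of this line, and 11.94 and 6.52 in the PVCre line. The part of these cells in the region differences of the members was not tested. None of the 3 members tested differed at an adjusted p under 0.05 in limma, and 0 of 3 had an unadjusted p under 0.05. Over all genes, 2.36% were called, 1.76% higher and 0.602% lower in striatum. Ntrk2 differed by -0.01 ± 0.48 (SE), with a 95% interval from -1.04 to 1.03 and an adjusted p of 1.0. Ntrk3 had a difference of -1.12 ± 0.66 with an interval from -2.53 to 0.29 and an adjusted p of 0.84. Ngfr differed by -0.04 ± 0.12, with an adjusted p of 0.99. On the arrays with Pvalb of at least 9, which are replicates 1 and 2 of each region, Ntrk3 differed by -1.86 ± 0.50 with an adjusted p of 0.073, while Ntrk2 differed by -0.30.

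In the PVCre line the same question again gave 0 of 3 members at an adjusted p under 0.05 in limma, against 3.96% of all genes, 2.9% higher and 1.06% lower, and 1 of 3, Ntrk2, at an unadjusted p under 0.05. Ntrk2 was 1.43 ± 0.48 higher in striatum, with an interval from 0.40 to 2.46 and an adjusted p of 0.14. Ntrk3 differed by 0.36 ± 0.66, with an interval from -1.05 to 1.77 and an adjusted p of 0.83, and Ngfr by -0.12 ± 0.12, with an adjusted p of 0.67. The Ntrk values rested on PVCre cortex, whose low arrays also had low Gad1. Without the arrays with Pvalb under 9, the Ntrk2 difference was 0.57 with an adjusted p of 0.68, and that of Ntrk3 was -1.02 ± 0.43 with an adjusted p of 0.31, the opposite sign. Without PVCre cortex replicate 3 alone, the array with the highest Ntrk2 of its group, Ntrk2 differed by 1.93 with an adjusted p of 0.015. Array weights gave Ntrk2 a difference of 1.46 with an adjusted p of 0.012, and control separation as a covariate 1.5 with 0.021, both past the threshold. Leaving out PVCre cortex replicate 2 or 4 alone gave Ntrk3 a difference of -0.08 or -0.12.

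**Figure D2:**
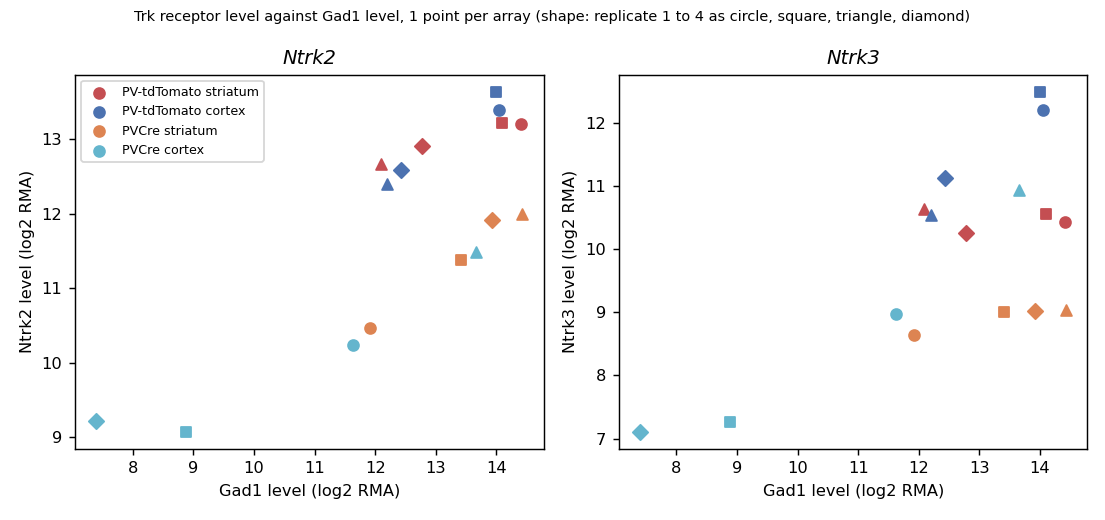
Level of Ntrk2 and of Ntrk3 (log2 scale) against that of Gad1 on the 16 arrays, coloured by group, with the replicate number as shape. The 2 PVCre cortex arrays with Gad1 of 7.40 and 8.88 have the lowest Ntrk2 and Ntrk3 levels of all.

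The second question was how cells labelled through Cre differ from cells labelled without it in the same region. In striatum, Ntrk2 fell in the PVCre line by 1.57 ± 0.48 on the log2 scale, 2.96-fold, with an interval from -2.60 to -0.53 and an adjusted p of 0.013 in limma. It was the only one of the 3 members called there, against 53.4% of all genes called and 35.3% called lower. The Ntrk2 values did not overlap between the lines, as for 50.3% of all genes. Ntrk3 had a difference of -1.54 ± 0.66, with an interval from -2.95 to -0.13 and an adjusted p of 0.062, and its arrays did not overlap either. The fit shares 1 estimate of the spread with the cortical groups. From the striatal arrays alone the difference was -1.54 ± 0.14 with an adjusted p of 0.00011. Without PVCre cortex replicate 2, 3 or 4, the adjusted p was 0.049, 0.0085 or 0.044. Ngfr differed by 0.09 ± 0.12, with an adjusted p of 0.55.

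In cortex, Ntrk2 and Ntrk3 both fell in the PVCre line, 2 of the 3 members tested, against 53.6% of all genes called and 34.6% called lower. Ntrk2 fell by 3.00 ± 0.48, 8.02-fold, with an interval from -4.04 to -1.97 and an adjusted p of 0.00015 in limma. Its arrays did not overlap between the lines, as for 47% of all genes. Ntrk3 fell by 3.02 ± 0.66, 8.13-fold, with an interval from -4.43 to -1.61 and an adjusted p of 0.0015. Its arrays overlapped, since PVCre cortex replicate 3, at 10.93, lay above PV-tdTomato cortex replicate 3, at 10.53. Ngfr differed by 0.17 ± 0.12, with an adjusted p of 0.24.

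The median line difference of the genes tested was -0.23 in both regions, and quantile normalization brought it to -0.02 in striatum and 0.02 in cortex. With quantile normalization Ntrk2 differed by -1.15 ± 0.41 and -2.59 ± 0.41, with adjusted p of 0.033 and 0.00016. Ntrk3 then differed by -0.98 ± 0.64 in striatum and -2.54 ± 0.64 in cortex, with adjusted p of 0.22 and 0.0047. Without the arrays with Pvalb under 9, Ntrk2 differed between the lines by -1.78 in striatum and -2.66 in cortex, with adjusted p of 0.0098 and 0.0039. In the same fit Ntrk3 differed by -1.56 ± 0.43 and -2.40 ± 0.50, with adjusted p of 0.014 and 0.005. Without the arrays with Xist over 12, Ntrk2 differed by -1.73 and -4.14, and Ntrk3 by -1.40 and -4.69. That fit keeps 1 PVCre array in each region, which is assumed to vary like the other groups. In cortex the array kept is PVCre replicate 2, with Pvalb at 7.93 and Gad1 at 8.88, so the cortical values rest on an array that went against its label. The separation of control probe sets did not overlap between the lines, so a fit with it as a covariate cannot tell line from array quality. In that fit the calls were lost. Ntrk2 then differed by 0.44 ± 0.64 in striatum and -1.19 ± 0.60 in cortex, with adjusted p of 0.62 and 0.16, and Ntrk3 by 0.49 ± 1.06 and -1.19 ± 0.99, with adjusted p of 0.75 and 0.40.

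The region difference of Ntrk2 was 1.44 ± 0.68 larger in the PVCre line, with an interval from -0.02 to 2.90 and an adjusted p of 0.71 for the interaction of line and region. For Ntrk3 the interaction was 1.48 ± 0.93, with an adjusted p of 0.86, and for Ngfr -0.08 ± 0.17, with an adjusted p of 0.98. In this limma test 0 of 3 members were called, also at an unadjusted p under 0.05, against 0.199% of all genes, 0.149% above and 0.0498% below 0, so a difference between the lines in the regional pattern was not shown.

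**Figure D3:**
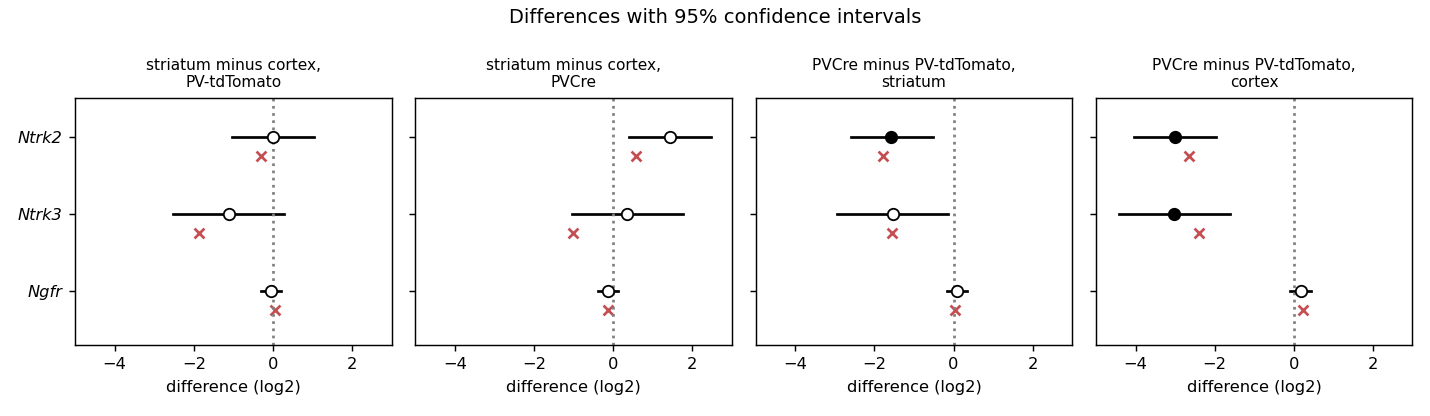
Difference (log2, points) with its 95% confidence interval (bars) for Ntrk2, Ntrk3 and Ngfr in the region comparison of each line and the line comparison of each region. Filled points have an adjusted p under 0.05, and red crosses give the value without the arrays with Pvalb under 9. The filled points are the PVCre minus PV-tdTomato differences of Ntrk2 in both regions and of Ntrk3 in cortex, and the Ntrk3 region difference in PVCre changes side without those arrays.

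Markers of other cells differed between the lines too. Beside the counts below, 18.1% of all genes in striatum and 19% in cortex were called higher in PVCre. Called lower were 35.3% in striatum and 34.6% in cortex. The mean level of 9 measured microglial markers was 5.35 to 5.79 on the PV-tdTomato arrays and 7.30 to 9.42 on the PVCre arrays, and all 9 rose in both regions. Oligodendrocyte markers averaged 13.55 ± 1.18 in striatum and 13.94 ± 1.15 in cortex of the PV-tdTomato line. In the PVCre line they averaged 14.68 ± 0.13 and 15.33 ± 0.18, and 5 of 11 in striatum and 8 of 11 in cortex rose. Within the PV-tdTomato line, replicates 1 and 2 read 12.56 and 12.50 in striatum and 12.87 and 13.04 in cortex. Replicates 3 and 4, the arrays with low Pvalb, read 14.52 and 14.63 in striatum and 15.12 and 14.73 in cortex. Astrocyte markers averaged 7.74 ± 0.43 and 7.44 ± 0.78 against 7.28 ± 0.18 and 6.70 ± 0.28, with none of 10 tested rising and 2 in striatum and 3 in cortex falling. Of 11 parvalbumin interneuron markers, 3 fell in striatum and 6 in cortex, their mean going from 10.53 ± 0.77 to 9.63 ± 0.56 and from 10.50 ± 1.12 to 8.74 ± 1.73. Pvalb itself averaged 9.73 ± 2.23 in PV-tdTomato striatum and 11.24 ± 0.74 in PVCre striatum, and Gad1 13.34 ± 1.09 and 13.42 ± 1.09. In cortex Pvalb averaged 9.36 ± 2.68 and 9.42 ± 2.6, and Gad1 13.17 ± 0.99 and 10.39 ± 2.79. Of 11 markers of other GABAergic interneurons, 5 fell in striatum and 10 in cortex, with median differences of -1.32 and -3.74. Of 6 oligodendrocyte precursor markers, 4 fell in striatum and 3 in cortex, with medians of -2.10 and -1.62. Their mean on PV-tdTomato replicates 3 and 4 was 11.93 and 11.25 in striatum and 11.73 and 11.70 in cortex. On replicates 1 and 2 it was 8.89 and 8.73 in striatum and 9.36 and 9.69 in cortex. The PVCre arrays ran from 8.16 to 8.53 in striatum and from 8.86 to 9.50 in cortex, nearer to replicates 1 and 2. In striatum 7 of 8 endothelial and 5 of 5 ependymal markers rose, against 1 of 8 and 2 of 5 in cortex. The part of these cells in the Ntrk2, Ntrk3 and Bdnf values was not tested.

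The genes of the pathway around the receptors were counted from lists of 98 symbols, of which 79 were tested, the 3 members included. Between the lines, 7 rose and 37 fell in striatum in PVCre, 55.7% of the 79 against 53.4% of all genes, and 8 rose and 48 fell in cortex, 70.9% against 53.6%. The median difference of the 79 genes was -0.66 in either region, against -0.23 for all genes. Between regions of the PV-tdTomato line 3 genes, 3.8%, were lower in striatum, against 0.602% of all genes, and 0 were higher, against 1.76%. In the PVCre line 2 genes, 2.5%, were lower, against 1.06% of all genes, and 0 were higher, against 2.9%. At an unadjusted p under 0.05 in these limma tests, 1 and 7 pathway genes were higher and 10 and 8 lower in striatum (PV-tdTomato, PVCre). No pathway gene was called in the limma test of the interaction, where 11 had an unadjusted p under 0.05.

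Among 13 co-receptors and p75 partners, 1 rose and 8 fell in striatum in the PVCre line, and 1 rose and 11 fell in cortex. These are 69.2% and 92.3% called, against 53.4% and 53.6% of all genes. The list's median difference was -0.89 in striatum and -1.61 in cortex, against -0.23 for all genes. Kidins220, a scaffold protein bound by Trk receptors and p75NTR, fell by 2.39 ± 0.18 in striatum and fell by 2.81 ± 0.18 in cortex, with adjusted p of 3e-07 and 1.2e-07 in limma. Slitrk5, a membrane protein that binds TrkB, fell by 2.21 ± 0.25 in striatum and fell by 2.11 ± 0.25 in cortex. Maged1, also known as NRAGE, a p75NTR partner, fell by 2.64 ± 0.36 in striatum and fell by 2.94 ± 0.36 in cortex. Lingo1, a p75NTR co-receptor in the Nogo receptor complex, fell by 0.61 ± 0.11 in striatum, where its mean in PVCre was 6.09, at background.

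Sorcs3, a sortilin-family receptor, was the co-receptor called between regions. Its mean was 8.44 ± 0.25 in PV-tdTomato striatum and 10.57 ± 1.42 in PV-tdTomato cortex, a difference of -2.13 ± 0.49 with an adjusted p of 0.032 in limma. The call was lost without PV-tdTomato striatum replicate 1, 2 or 4 or cortex replicate 1 or 2, at adjusted p of 0.075 to 0.11 and differences of -2.15 to -1.67, with replicate number as a block, at an adjusted p of 0.065, and with only the arrays compared, at 0.29. In the same comparison 6 of 11 other GABAergic interneuron markers had lower levels in striatum and 1 was higher, with a median of -2.15, and 5 of 5 ependymal markers were higher, with a median of 4.27. Their part in the regional values of Sorcs3, Cadps2 and Nptx2 was not tested. In cortex Sorcs3 fell by 4.02 ± 0.49 in the PVCre line, to a mean of 6.55 ± 0.42.

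Of 8 genes for neurotrophin processing and release, 4 fell in striatum in the PVCre line, while 1 rose and 3 fell in cortex. At 50% called in either region the list did not exceed the share of all genes, 53.4% and 53.6%. The median difference was -0.73 in striatum and -0.51 in cortex. Cadps2, a regulator of dense-core vesicle release that promotes BDNF secretion, fell in both regions of the PVCre line. In striatum its mean went from 8.20 to 5.95, at background, a fitted difference of -2.25 ± 0.59 with an adjusted p of 0.0055 in limma. In cortex it fell by 4.26 ± 0.59, from 10.81 to 6.55, with an adjusted p of 4.7e-05. It was also lower in PV-tdTomato striatum than in PV-tdTomato cortex, with a difference of -2.61 ± 0.59 with an adjusted p of 0.03. That region call was lost without PV-tdTomato striatum replicate 1, 3 or 4 or cortex replicate 1 or 2, at adjusted p of 0.052 to 0.12, and with only the arrays compared, at 0.29. Array weights gave a difference of -1.55 with an adjusted p of 0.069.

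Cpe, a carboxypeptidase and sorting receptor for pro-BDNF, had a mean of 15.91 in PV-tdTomato striatum. It fell by 1.32 ± 0.49 in striatum, with an adjusted p of 0.036 in limma, and by 2.27 ± 0.49 in cortex, with an adjusted p of 0.0015. The striatal call was lost without PV-tdTomato striatum replicate 1 or 2 or PVCre striatum replicate 1 or 4, at adjusted p of 0.066 to 0.098. Pcsk5, a proprotein convertase, fell by 0.83 ± 0.17 in striatum and fell by 0.71 ± 0.17 in cortex, to PVCre means of 5.66 and 5.67 at background. Pcsk7, another convertase, fell by 0.57 ± 0.19 in striatum with an adjusted p of 0.018, a call lost without PV-tdTomato striatum replicate 3 or 4 or PVCre striatum replicate 4, at adjusted p of 0.053 to 0.064. Plat, the plasminogen activator whose product plasmin cuts pro-BDNF, rose by 1.22 ± 0.44 in cortex with an adjusted p of 0.031. The Plat call was lost without PV-tdTomato cortex replicate 1 or 2 or PVCre cortex replicate 1, 2 or 4, at adjusted p of 0.062 to 0.09.

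Of 28 genes for Trk signalling, none rose in either region in the PVCre line, while 18 fell in striatum and 19 in cortex. Over all genes, 18.1% and 19% were called higher, and 35.3% and 34.6% lower. The list had a median difference of -0.81 in striatum and -0.61 in cortex. In striatum, Map2k1, the kinase MEK1, fell by 1.29 ± 0.12, and Grb2, the adaptor that links receptors to Ras, fell by 1.44 ± 0.14. Crkl, an adaptor of the Rap1 route, fell by 1.73 ± 0.18 in striatum and fell by 1.54 ± 0.18 in cortex. Sh2b1, an adaptor of Trk receptors, fell by 1.52 ± 0.16 in striatum and fell by 1.26 ± 0.16 in cortex. In cortex Akt1, a survival kinase, fell by 1.08 ± 0.12, and Plcg1, phospholipase C gamma, fell by 0.76 ± 0.11.

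Between regions of the PVCre line, Grb2 and Map2k1 were lower in striatum. Grb2 differed by -0.77 ± 0.14 with an adjusted p of 0.0059 in limma. Without the arrays with Pvalb under 9 the difference was -0.74, with an adjusted p of 0.057. Map2k1 differed by -0.48 ± 0.12 with an adjusted p of 0.032, a call lost without replicate 1, 2 or 4 of either PVCre group, at adjusted p of 0.076 to 0.096, with only the arrays compared, at 0.058, with quantile normalization, at 0.057, and with a trended robust prior, at 0.089. Its difference was -0.41 without the arrays with Pvalb under 9, with an adjusted p of 0.22. In this comparison 5 of 5 ependymal, 4 of 8 endothelial and 4 of 8 striatal projection neuron markers were higher in striatum, and their part was not tested.

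Among 12 regulators of Bdnf transcription, none rose in the PVCre line, 5 fell in striatum and 6 in cortex. These are 41.7% and 50% called, below the 53.4% and 53.6% of all genes. Their median difference was -0.33 in striatum and -0.71 in cortex. Crtc1, a CREB co-activator, fell by 1.59 ± 0.19 in striatum and fell by 1.20 ± 0.19 in cortex. Mef2d, an activity-regulated transcription factor, fell by 1.43 ± 0.17 in striatum and fell by 1.11 ± 0.17 in cortex. Carf, a calcium-response factor of a Bdnf promoter, fell by 1.08 ± 0.14 in striatum and fell by 0.98 ± 0.14 in cortex, and Usf1, another factor binding there, fell by 0.66 ± 0.12 in striatum and fell by 0.64 ± 0.12 in cortex. In neither line was a gene of this list called between regions in limma, with 1 gene at an unadjusted p under 0.05 in the PV-tdTomato line and 2 in the PVCre line.

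The 15 genes that BDNF induces in neurons divided. In striatum 6 rose and 1 fell in the PVCre line, and in cortex 6 rose and 7 fell. The share called was 46.7% in striatum, against 53.4% of all genes, and 86.7% in cortex, against 53.6%. Over all genes, 18.1% and 19% were called higher. The median of the 15 differences was 0.16 in striatum and 0.10 in cortex. The transcription factors Egr1, Egr2 and Egr3, and Fos, are immediate early genes, induced by many stimuli and in many cell types. Egr2 rose by 3.4 ± 0.33 in striatum and 3.09 ± 0.33 in cortex, from PV-tdTomato means of 6.61 and 6.71. Egr3 rose by 1.51 ± 0.12 and 1.62 ± 0.12, from 6.35 and 6.31, and Egr1 by 1.51 ± 0.15 and 1.54 ± 0.15, from 6.44 and 6.45. These PV-tdTomato means of Egr3 and Egr1 lay within the range of the arrays' negative control medians, 6.18 to 6.70. Those of Egr2 lay near its upper end, so all of these rises start near background. Fos rose by 2.24 ± 0.39 in striatum, from 9.21 to 11.45, with an adjusted p of 0.00027 in limma. Spry4, an inhibitor of Ras-MAP kinase signalling, fell by 1.68 ± 0.31 in cortex to 5.46, at background.

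The microglial markers that rose on the PVCre arrays stand beside these values too, and their part was not tested. Nptx2, a synaptic pentraxin, was lower in PV-tdTomato striatum than in PV-tdTomato cortex, with a difference of -0.59 ± 0.14 and an adjusted p of 0.038 in limma. That call was lost without replicate 1, 2 or 4 of either PV-tdTomato group, replicate 1, 3 or 4 of PVCre striatum, or replicate 3 or 4 of PVCre cortex, at adjusted p of 0.051 to 0.14, with replicate number as a block, at 0.14, with quantile normalization, at 0.061, with the lower 50% of genes left out, at 0.053, and with only the arrays compared, at 0.20.

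Several named calls were lost without the arrays with Xist over 12, in a fit with fewer arrays and 1 PVCre array in each region, at adjusted p of 0.081 to 0.45. Between lines in striatum the differences there were -2.46 for Cadps2, -0.86 for Pcsk5, -0.42 for Pcsk7, -1.26 for Cpe, -0.57 for Lingo1, -0.75 for Usf1 and 2.03 for Fos. Between lines in cortex, where PVCre replicate 2 alone remained, they were -0.77 for Pcsk5, 1.59 for Plat, -0.42 for Usf1 and -1.66 for Spry4. Between regions they were -2.73 for Sorcs3, -2.74 for Cadps2 and -0.79 for Nptx2 in the PV-tdTomato line, and -1.25 for Grb2 and -0.53 for Map2k1 in the PVCre line. Of these 16 differences, all kept their sign, and those of Grb2 and of Usf1 in cortex moved by over 1.5 times.

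Named line calls were also lost in limma with the separation of control probe sets as a covariate, at adjusted p of 0.062 to 0.97. That fit cannot tell line from array quality. The calls of Lingo1, Fos, Pcsk5, Cadps2 and Cpe in striatum and of Pcsk5 and Plat in cortex were lost in both settings. In striatum Lingo1 then differed by -0.51, Fos by 1.86, Pcsk5 by -0.53, Cadps2 by -1.44, Maged1 by -0.87 and Cpe by 1.00. In cortex Pcsk5 differed by -0.43, Crtc1 by -0.54, Mef2d by -0.46, Cpe by -0.17 and Plat by -0.04. Lingo1 and Fos stayed within 1.5 times of their values without the covariate, the others shrank by more, and Cpe in striatum and Plat in cortex changed sign. Pcsk7 differed between lines in striatum by -0.25 without the arrays with Pvalb under 9, with an adjusted p of 0.12, and by -0.30 with quantile normalization, with an adjusted p of 0.24.

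**Figure D4:**
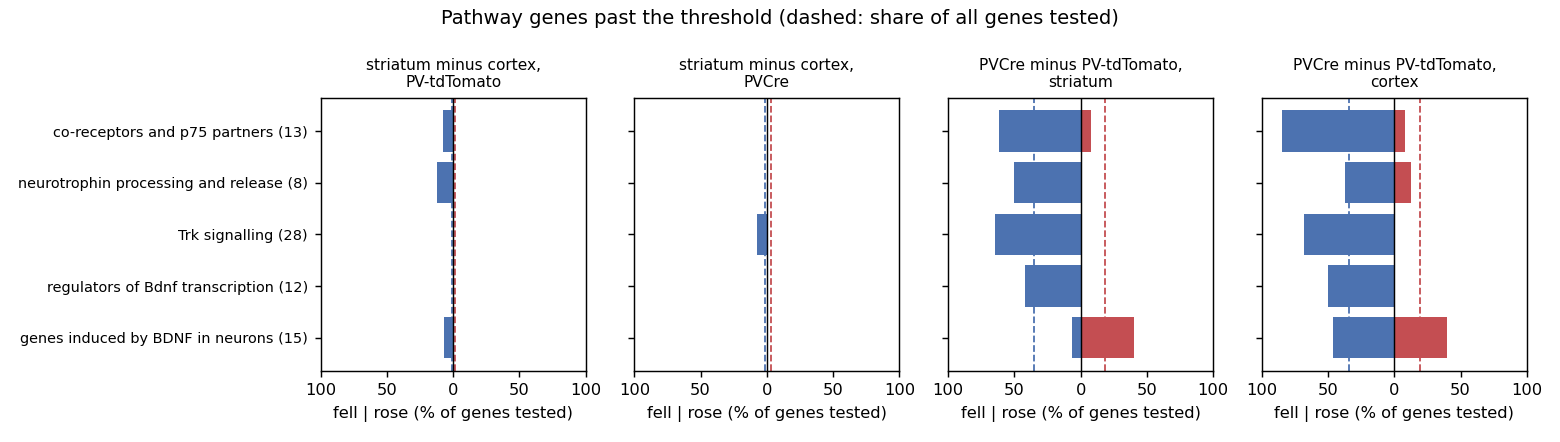
Share of the tested genes of each pathway list (percent) that fell (blue, to the left) or rose (red, to the right) in each of the 4 comparisons, with dashed lines at the shares of all genes tested and the number of genes in brackets. Between lines, Trk signalling holds falls alone, 18 of 28 genes in striatum and 19 in cortex, and the genes induced by BDNF hold 6 rises in either region.

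After the mean of each line was removed, the genes whose levels followed those of the members most closely over the 16 arrays were listed as a description. For Ntrk2 these were Nmnat2, an NAD-synthesizing enzyme of axons, with a Pearson r of 0.99, Ptpn4, a tyrosine phosphatase, with 0.98, and Syn2, a synaptic vesicle protein, with 0.97. For Ntrk3 they were Sntg1, a syntrophin, with 0.97, Cacna1c, an L-type calcium channel subunit, with 0.97, and Ntm, an adhesion molecule, with 0.95. For Bdnf they were Gmfg with 0.90, Was with 0.89 and Zmynd15 with 0.89, and for Ngfr Cbx2 with 0.86, Arhgap45 with 0.82 and Rac2 with 0.82, both members lying at or near background. On the same measure, r with Gad1 was 0.96 for Ntrk2, 0.70 for Ntrk3, -0.79 for Bdnf and -0.36 for Ngfr. With Pvalb it was 0.81, 0.68, -0.64 and -0.30. The likeness is therefore not particular to the genes named, and the part of cell content in it was not tested. The 16 arrays share lines and regions, and the values include the regional differences.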

How the data were processed

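Values were deposited on the log2 scale. Per the submitters' processing notes, the authors used RMA and Affymetrix Expression Console. For the software version, the genome build and which arrays were normalized together, the sources used here give nothing. The table held 72688 probe sets, of which 65770 were transcript clusters. Platform annotation gave 30604 clusters 1 symbol, 2146 several and 33020 none, and only the first were used. Symbols of 827 clusters were updated by Entrez number, and of 355 genes with several clusters the one with the highest mean was kept. The Ntrk3 cluster lists 2 Entrez numbers under 1 symbol.

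The lowest 33.3% of genes by mean over all arrays, under a level of 5.53, were left out. The remaining 20094 genes were fitted in limma 3.58.1 (R 4.3.3; Python 3.11.15, pandas 2.3.3 and numpy 2.4.6 for the rest) over all 16 arrays, with 1 mean per group and Benjamini-Hochberg adjustment over all genes tested, at a threshold of 0.05. A fold is computed from the log2 difference, and array number limits the precision. The fits were tested on simulated data. No pair of arrays held identical values.

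Replicate numbers come from the titles. Same-numbered striatal and cortical arrays of the PV-tdTomato line deviated together (correlations of deviations 0.76, 0.58, 0.70 and 0.63). Striatal replicates 2 and 4 there nevertheless followed cortical replicates 1 and 3 most closely. Those of the PVCre line did not deviate together (-0.01, 0.29, 0.69 and -0.29), and the descriptions of the PVCre cortex arrays carry other numbers than the titles. The main fits and the exact permutation tests used no pairs, and only the replicate block used the replicate numbers. The members and lists were chosen with earlier results of these data known. Named pathway genes are up to 4 per list and comparison with the smallest adjusted p past the threshold. Likeness excludes predicted genes. Alternatives were other filters, normalizations and priors, array weights, a replicate block, a control covariate, only the arrays compared, and arrays left out. Leaving out the arrays with high Xist was chosen after seeing the data.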

Additional observations from a re-analysis of the deposited data

Results flagged for a closer look

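In 124 groups of 4 arrays, from 31 genes, 12 held 1 array far from the other 3, by a gap above Dixon's critical share of the group's range. Chance flags about 1 in 20 such groups. Among the members, Bdnf was 5.49 on PVCre striatum replicate 1, with the next array at 5.18, and Ntrk3 was 8.64 on the same array, with the next at 9.01. Both gaps are small on the log2 scale, and Bdnf was at background there.

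Among the pathway genes, Slitrk5 was 9.64 on PVCre cortex replicate 3, with the next array at 8.88. On the same array Map2k1 was 10.11, with the next at 10.41. Lingo1 was 7.30 on PV-tdTomato cortex replicate 1, with the next at 6.98. On PVCre striatum replicate 4, Pcsk7 was 6.79 and Crkl 10.52, with the next arrays at 7.05 and 10.70. Usf1 was 6.82 on PV-tdTomato striatum replicate 2, with the next at 7.25, and 6.80 on PVCre cortex replicate 2, with the next at 6.61. Nptx2 was 6.90 on PV-tdTomato striatum replicate 3, with the next at 6.47, and 6.95 on PVCre striatum replicate 2, with the next at 6.67. Egr1 was 6.22 on PV-tdTomato striatum replicate 4, with the next at 6.5.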

How the results depend on the processing

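Leaving out 1 array at a time, the Ntrk2 difference ran from -0.21 to 0.21 and from 1.12 to 1.93 between regions (PV-tdTomato, PVCre), from -1.75 to -1.24 and from -3.50 to -2.69 between lines (striatum, cortex), and from 1.13 to 1.93 for the interaction. For Ntrk3 these ranges were -1.48 to -0.82, -0.12 to 1.15, -1.61 to -1.44, -3.81 to -2.54 and 1.00 to 2.27. For Ngfr they were -0.08 to 0.02, -0.20 to -0.05, 0.03 to 0.12, 0.10 to 0.25 and -0.16 to -0.01, and for Bdnf -0.15 to -0.08, -0.27 to -0.13, 0.40 to 0.52, 0.49 to 0.63 and -0.15 to -0.01. Members past the threshold then numbered 0 to 1 between regions of the PVCre line and 1 to 2 between lines in striatum.

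With the replicate block, the Ntrk2 region difference in PVCre was 1.43 with an adjusted p of 0.048, giving 1 member called; no other member's call changed. The calls of Pcsk7 and Cpe between lines in striatum, Plat between lines in cortex and Map2k1 between PVCre regions were lost with it, at adjusted p of 0.061, 0.06, 0.062 and 0.06. The block raised the genes called between regions from 474 to 577 in the PV-tdTomato line and from 796 to 2088 in the PVCre line.

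Array weights gave the Ntrk2 region difference as 0.38 in PV-tdTomato and 1.46 in PVCre (adjusted p 0.012, 1 member called), the Ntrk3 line difference in striatum as -1.48 (0.018, 2 members called) and the Ngfr line difference in cortex as 0.25 (0.043). With control separation as covariate, the Ntrk2 region difference in PVCre was 1.5 (0.021, 1 member called), the Ntrk2 and Ntrk3 line differences were 0.44 and 0.49 in striatum and -1.19 for both in cortex (0 members called in either region), and those of Cpe in striatum and Plat in cortex were 1.00 and -0.04. Only the arrays compared gave Ntrk3 -1.54 in striatum (2 members called). Without the arrays with Pvalb under 9, Ntrk3 differed by -1.02 between PVCre regions and -1.56 between lines in striatum (2 members called), and Ngfr by 0.06 between PV-tdTomato regions. Without the arrays with Xist over 12, Ngfr differed by 0.15 between PVCre regions, -0.09 between lines in cortex and 0.24 in the interaction. Without the filter, Bdnf differed by 0.48 and 0.54 between lines (2 members called in striatum). The Ntrk2 minus Ntrk3 change between PV-tdTomato regions was 1.56 without the arrays with Pvalb under 9. The causes were not tested. Over all the alternatives, genes called ran from 156 to 1646 and 94 to 2529 between regions (PV-tdTomato, PVCre), 3655 to 15188 and 5326 to 15375 between lines (striatum, cortex), and 0 to 153 for the interaction. Signal over background limits Bdnf, Ntf5 and Ngfr.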

Other observations

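The distance between Ntrk2 and Ntrk3 on an array was examined after the values had been seen. Probe effects set the size of such a distance, so only its change between groups was compared. In the PV-tdTomato line Ntrk2 minus Ntrk3 was 2.79, 2.67, 2.03 and 2.66 in striatum and 1.19, 1.15, 1.87 and 1.46 in cortex (log2 scale). The striatal arrays were all above the cortical ones, by 1.12 on average, with a two-sided exact permutation p of 0.029, the smallest that 4 against 4 arrays can give, and an adjusted p of 0.11 over 4 comparisons. With the arrays taken as pairs, the smallest exact p would be 0.125. In the PVCre line the distance was 1.83, 2.37, 2.95 and 2.89 in striatum and 1.27, 1.81, 0.56 and 2.11 in cortex, overlapping, with a difference of 1.07, an exact permutation p of 0.057 and an adjusted p of 0.11. Between lines it differed by -0.02 in striatum and 0.02 in cortex, with exact permutation p of 0.94 and 0.91.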
